A study of Mus musculus with 12 samples.

Results

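*Eef1d* encodes the delta subunit of eukaryotic elongation factor 1 (eEF1), and it was examined here together with *Eef1a1*, *Eef1b2*, *Eef1g* and *Eef2*. These 5 genes were matched by symbol among the 54146 genes of each library, and they had been chosen with earlier results of these data known. In the elongation step of protein synthesis, eEF1A binds GTP and brings aminoacyl-tRNA to the ribosome. GTP is then hydrolysed, and the eEF1B complex reloads eEF1A by exchanging GDP for GTP. eEF1B holds the exchange subunits eEF1B2 (alpha) and eEF1D (delta) and the subunit eEF1G (gamma), which anchors them. eEF2 moves the ribosome along the mRNA after each peptide bond. Rapidly dividing cells such as embryonic stem cells express all of these factors at high levels.

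The libraries were RNA-seq libraries of mouse embryonic stem cells (mESCs), strain C57BL/6. All cells carried the genotype Prdm10F/F; Rosa26-CreERT2, so that both alleles of the zinc finger factor gene *Prdm10* were floxed and a tamoxifen-dependent Cre was expressed from the *Rosa26* locus. Cells were kept for 24 h in 50 nM 4-hydroxytamoxifen (OHT), which activates this Cre, or in its solvent ethanol (EtOH), and were harvested at Day 2 or Day 4. This gave the 4 groups Day2_EtOH, Day2_OHT, Day4_EtOH and Day4_OHT with 3 libraries each, and controls therefore differed from treated cells in the agent alone.

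The 12 libraries held 35017667 to 41409992 expected counts. All 10 markers of mESCs were at 1 TPM (transcript abundance scaled to transcript length and to the library) or more in every group, and their summed TPM stood at 2863 to 2969 in Day4_OHT and at 2484 to 2862 in the other groups. Summed over 8 markers of fibroblast feeder cells the TPM was 1.07 to 1.62 in Day4_OHT and 2.39 to 3.39 elsewhere, mostly from *Thy1*, with *Lum* at 0.01 or less. The 4 neural markers summed to 36.8 to 38.8 in Day4_OHT and 57.3 to 67.7 elsewhere, nearly all of it from *Tubb3*, and the lists of 4 mesoderm and 4 endoderm markers summed to 0.62 to 1.35 each. The part of these shifts in the Day 4 results was not tested. The gene-level count of *Prdm10* was higher with OHT on both days. Its normalised count (mean ± SD of 3 libraries) was 801 ± 29.4 in Day2_EtOH, 2173 ± 80.3 in Day2_OHT, 869 ± 45.8 in Day4_EtOH and 2012 ± 67.5 in Day4_OHT. Gene-level counts do not resolve the floxed exon. For these cells the study reported recombination after OHT, checked in genomic DNA, in transcript of the floxed exon and in protein. The groups are called by their labels.

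*Eef1d* (ENSMUSG00000055762.16) lies on the minus strand of chromosome 15, from 75894205 to 75909556 in GRCm38, and has 18 annotated transcripts, 15 of them protein coding and 350 to 2842 bases long. *Eef1b2* (ENSMUSG00000025967.16) lies on the plus strand of chromosome 1, from 63176825 to 63180486. *Eef1g* (ENSMUSG00000071644.10) is on the plus strand of chromosome 19, from 8967041 to 8978479. *Eef1a1* (ENSMUSG00000037742.14) is on the minus strand of chromosome 9, from 78478449 to 78489151, and *Eef2* (ENSMUSG00000034994.10) on the plus strand of chromosome 10, from 81176631 to 81182498.

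The end of the *Eef1d* coding sequence, which holds the exchange domain, is related to that of *Eef1b2*, and it was asked whether reads of the 2 genes could be told apart. Over 398 aligned bases of the longest coding sequences, 267 (67.1%) were identical, and the longest identical run was 17 bases. The 21-base stretch that the study targeted with an *Eef1d* hairpin shows the difference. It covers positions 1959 to 1979 of the 1980 coding bases of the longest *Eef1d* isoform (stop codon left out) and is present in 9 of the 18 transcripts, and its closest match in *Eef1b2* covers positions 654 to 674. Both stretches are printed 5′ to 3′ on the coding strand, with the 5 bases that differ in capitals.
Eef1d: CAtCgcAgctttCaacaagat
Eef1b2: TGtGgcTgctttTaacaagat
No window of 75 bases in the annotated transcripts of *Eef1d* recurred in *Eef1b2*. Of the 7186 such windows of *Eef1d*, 282 (3.92%) were found in other genes, namely *Naprt*, which overlaps it, and 1 pseudogene. The posterior SD of the *Eef1d* count was at most 0.98 read pairs in any library. In the assignment of read pairs, which is all that this SD covers, *Eef1g* was the least certain of the 5. Of its windows, 38% were also present in 4 pseudogenes. Its posterior SD was 37.9 to 48.8 read pairs, which is at most 0.0977% of its count.

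To ask how *Eef1d* responded, OHT-labelled libraries were set against EtOH-labelled libraries of the same day. *Eef1d* fell at Day 2 and fell further at Day 4. Day 2 normalised counts were 13707, 13894 and 13150 in EtOH and 6390, 6521 and 6788 in OHT. Day 4 counts were 13946, 13516 and 13484 in EtOH and 4140, 4266 and 4122 in OHT. The groups did not overlap on either day, and the highest OHT library of a day lay far below its lowest EtOH library. The mean in OHT was 48.3% of that in EtOH at Day 2 and 30.6% at Day 4. The log2 fold change was -1.05 at Day 2 (DESeq2, SE 0.04, 95% interval -1.13 to -0.97, adjusted p = 2.12e-137). It was -1.71 at Day 4 (SE 0.03, 95% interval -1.78 to -1.65), where the DESeq2 adjusted p was too small to be represented and the edgeR adjusted p was 7.16e-13. Among the 11642 genes tested at Day 2, 19.8% were called (adjusted p below 0.05 and mean normalised count above 100), and 52 had a lower fold change than *Eef1d*. At Day 4, 45.1% of 11552 genes were called, and 45 had a lower one. In a bulk sample, fewer cells that express a gene and less RNA per cell cannot be told apart. The study's methods state in general that experiments had independent biological repeats. The labels do not say how the 3 libraries of a group were obtained, and if they did not come from separate cultures, the p-values measure only technical spread.

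**Figure D1:**
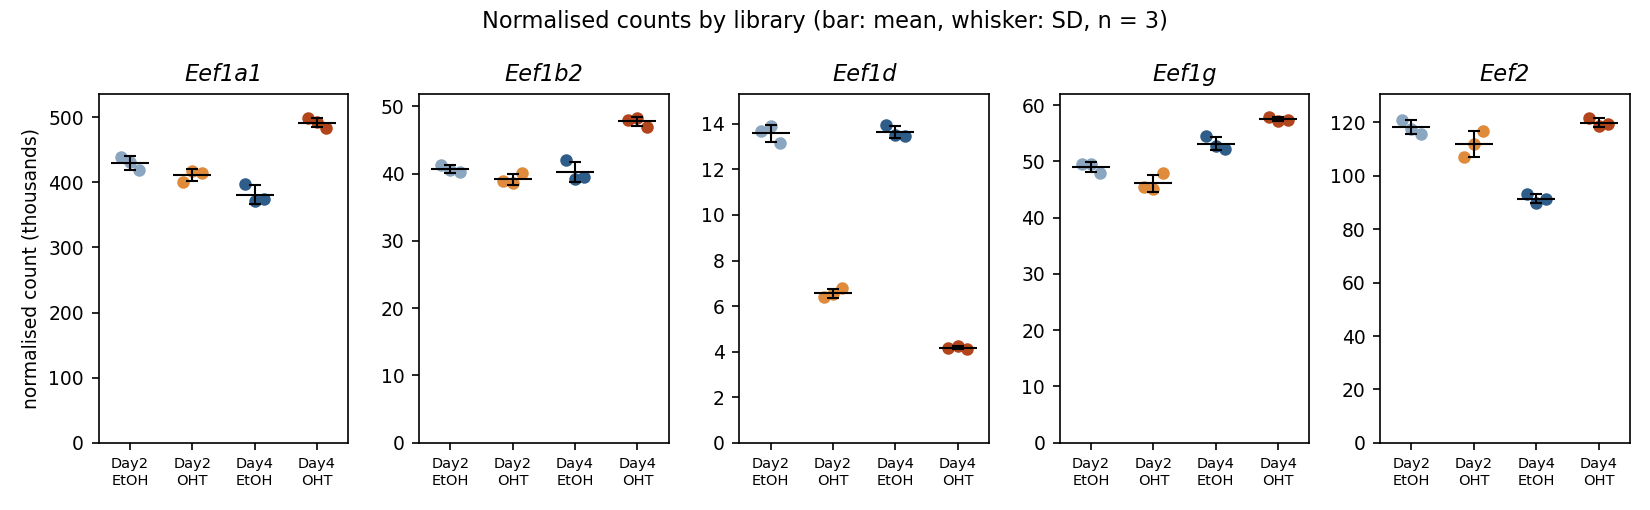
Normalised counts (each axis from 0, scaled as labelled) of the 5 genes in each of the 12 libraries, shown as points by group, with the mean as a bar and the SD as a whisker. *Eef1d* dropped from means of 13584 and 13648 in EtOH to 6566 and 4176 in OHT, while the means of the other 4 genes were highest in Day4_OHT, where the libraries of *Eef2* overlapped those of Day2_EtOH.

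The other 2 eEF1B subunits did not follow *Eef1d*. *Eef1b2*, which encodes the other exchange subunit, had normalised counts of 41266, 40529 and 40178 in EtOH and 38886, 38562 and 40102 in OHT at Day 2. Although the groups did not overlap, they were separated by a narrow gap, and the log2 fold change of -0.05 (SE 0.03, 95% interval -0.12 to 0.01) did not pass the test (DESeq2 adjusted p = 0.338). At Day 4 its counts were 42001, 39220 and 39443 in EtOH and 47992, 48301 and 46957 in OHT. All OHT libraries were higher, by a log2 fold change of 0.25 (DESeq2, SE 0.03, adjusted p = 4.85e-14).

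*Eef1g*, the anchoring subunit, had Day 2 counts of 49496, 49454 and 48001 in EtOH and 45402, 45072 and 47851 in OHT. The third OHT library lay close to the EtOH libraries, and the log2 fold change of -0.09 (SE 0.04, 95% interval -0.16 to -0.01) did not pass the test after adjustment (DESeq2 adjusted p = 0.0935). Without this library the log2 fold change was -0.11 and was called (DESeq2 adjusted p = 0.00423), and in a fit of all 12 libraries -0.09 was called as well (DESeq2 adjusted p = 0.0161). At Day 4 counts were 54552, 52781 and 52196 in EtOH and 57888, 57186 and 57434 in OHT. *Eef1g* rose least of the 4 genes that were higher at Day 4, by a log2 fold change of 0.11 (DESeq2, SE 0.03, adjusted p = 1.54e-04), with no overlap between the groups.

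*Eef1a1*, which encodes the GTPase that delivers aminoacyl-tRNA, was the most abundant of the 5. Its Day 2 counts were 439159, 431267 and 418536 in EtOH and 401285, 417136 and 415130 in OHT, and the log2 fold change of -0.06 (SE 0.03, 95% interval -0.13 to 0.00) did not pass the test (DESeq2 adjusted p = 0.228). Day 4 counts were 397877, 371644 and 373677 in EtOH and 499223, 492372 and 484105 in OHT. *Eef1a1* was thus higher in all Day4_OHT libraries, with a log2 fold change of 0.37 (DESeq2, SE 0.03, adjusted p = 1.48e-32).

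*Eef2*, the translocase, had Day 2 counts of 120964, 117633 and 115839 in EtOH and 106889, 111950 and 116993 in OHT. These groups overlapped, and the log2 fold change of -0.08 (SE 0.04, 95% interval -0.15 to 0.00) did not pass the test (DESeq2 adjusted p = 0.187). Leaving out the third OHT library gave -0.11, which was called (DESeq2 adjusted p = 0.0135). At Day 4 counts were 93218, 89789 and 91413 in EtOH and 121849, 118533 and 119306 in OHT. The log2 fold change of 0.39 (DESeq2, SE 0.03, adjusted p = 1.20e-49) was the largest rise among the 5 genes, though its 95% interval (0.34 to 0.44) overlapped that of *Eef1a1* (0.31 to 0.42), and 92.5% of all genes tested lay below it. For *Eef1a1* this share was 91.6%, for *Eef1b2* 83.3% and for *Eef1g* 67.5%.

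**Figure D2:**
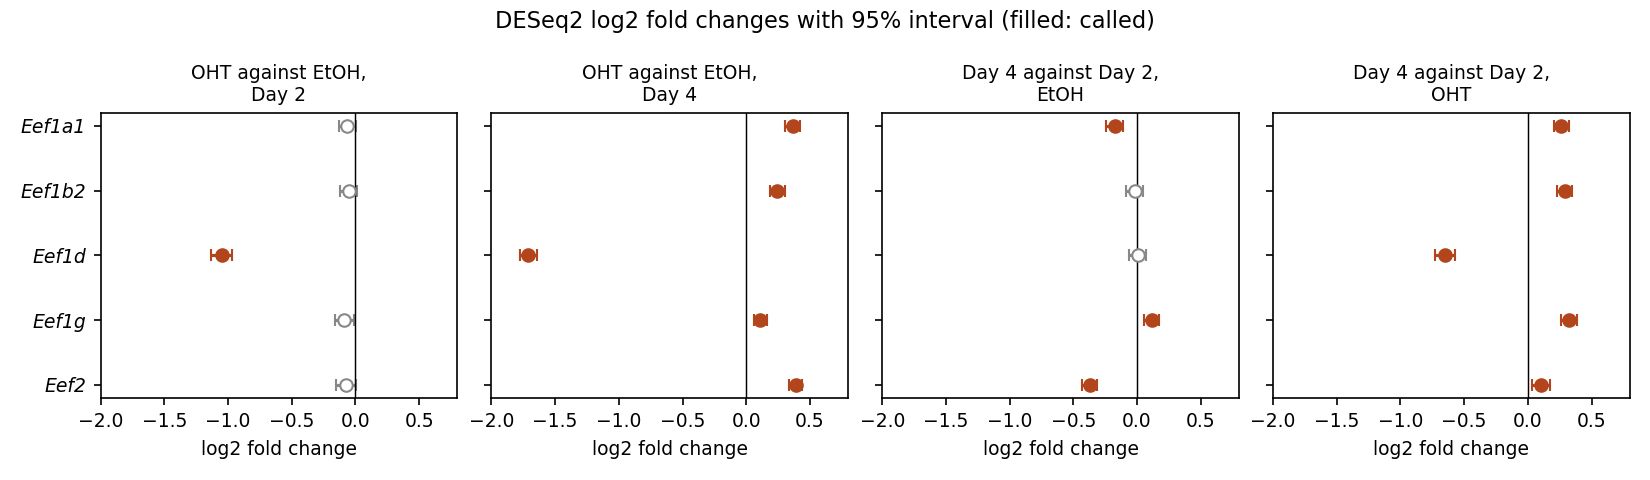
DESeq2 log2 fold changes of the 5 genes with 95% intervals in 4 comparisons (filled points were called, open points were not). *Eef1d* stands at -1.05 and -1.71 in the OHT comparisons, whereas the other 4 genes lie between -0.09 and -0.05 at Day 2 and between 0.11 and 0.39 at Day 4.

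To compare the days, an interaction term of agent and day was fitted over all 12 libraries. All 5 genes passed, in a fit that called 32.3% of 11612 genes. Over all genes 2175 of these differences were positive and 1577 negative, and with total counts as scaling 1665 and 2099. The difference (Day 4 minus Day 2, log2) was -0.66 for *Eef1d* (DESeq2, SE 0.05, adjusted p = 2.77e-40). It was positive for the others, at 0.47 for *Eef2* (SE 0.05), 0.43 for *Eef1a1* (SE 0.04), 0.30 for *Eef1b2* (SE 0.04) and 0.20 for *Eef1g* (SE 0.04), with DESeq2 adjusted p-values of at most 1.48e-05.

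The change between the days within one agent shows which arm moved. It uses the same libraries as the comparisons above, so that these values are another view of them and not separate evidence. In EtOH, where 41.1% of 11570 genes were called, *Eef2* fell by 0.37 on the log2 scale (DESeq2, SE 0.03, adjusted p = 6.49e-33) and *Eef1a1* fell by 0.18 (DESeq2, SE 0.03, adjusted p = 2.48e-06). *Eef1g* rose by 0.12 (DESeq2, SE 0.03, adjusted p = 9.68e-04). *Eef1d* and *Eef1b2* did not pass the test, with log2 fold changes of 0.004 (95% interval -0.06 to 0.07) and -0.02 (95% interval -0.08 to 0.05).

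In OHT, 53.6% of 11633 genes were called between the days. *Eef1d* fell by 0.65 on the log2 scale (DESeq2, SE 0.04, adjusted p = 2.59e-54). *Eef1g* rose by 0.32, *Eef1b2* by 0.29 and *Eef1a1* by 0.26 (SE 0.03 each, DESeq2 adjusted p at most 6.82e-17). *Eef2* moved least, by 0.10 (DESeq2, SE 0.04, adjusted p = 0.0144), a call that was lost with total counts as scaling (0.07, DESeq2 adjusted p = 0.0803) and when Day2_OHT replicate 1 (0.07), Day2_OHT replicate 2 (0.10), Day4_OHT replicate 1 (0.09) or Day4_OHT replicate 3 (0.11) was left out. The Day 4 excess of *Eef2* in OHT therefore stood against an EtOH arm that had fallen since Day 2, whereas that of *Eef1b2* stood against an EtOH arm with no detected change.

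Levels of different genes were compared as TPM, which is per transcript length. In Day2_EtOH the TPM (mean ± SD of 3 libraries) was 5757 ± 56.2 for *Eef1a1*, 1325 ± 10.4 for *Eef1b2*, 862 ± 5.87 for *Eef2*, 644 ± 9.65 for *Eef1g* and 424 ± 11.1 for *Eef1d*. This order held in every library of Day2_EtOH, Day2_OHT and Day4_OHT, with no overlap between neighbours. In Day4_EtOH, *Eef1g* (741 to 790) and *Eef2* (721 to 753) overlapped between libraries, and *Eef1g* was the higher of the pair in each of the 3 libraries. *Eef1a1* ranked 7 to 12 by TPM among all genes of a library, and *Eef1d* fell within a range of ranks from 255 to 651.

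The TPM of *Eef1d* was 421, 436 and 415 in Day2_EtOH and 233, 234 and 231 in Day2_OHT. It was 479, 457 and 446 in Day4_EtOH and 151, 153 and 155 in Day4_OHT. On this scale the OHT mean was 54.9% of the EtOH mean at Day 2 and 33.2% at Day 4. For the other 4 genes it was 100% to 102% at Day 2, so that their uncalled fold changes, slightly below 0 with normalised counts, were slightly above 100% as TPM. The Day 2 groups of *Eef1b2* did not overlap on either scale, yet lay in opposite directions (96.4% with normalised counts, 102% as TPM). At Day 4 it was 106% for *Eef1g*, 116% for *Eef1b2*, 126% for *Eef1a1* and 128% for *Eef2*.

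Ratios of TPM within a library do not depend on how libraries are scaled, and they were used to follow the balance of the subunits. The ratio of *Eef1d* to *Eef1b2* was 0.318, 0.332 and 0.311 in Day2_EtOH and 0.171, 0.172 and 0.172 in Day2_OHT. It was 0.317, 0.324 and 0.321 in Day4_EtOH and 0.0904, 0.0923 and 0.0927 in Day4_OHT. The 2 EtOH groups thus had nearly the same ratio, and the OHT groups stood at 53.6% and 28.6% of it. Among the TPM of the 3 eEF1B subunits, *Eef1d* made up (mean ± SD of 3 libraries) 17.7% ± 0.418 in Day2_EtOH and 10.4% ± 0.074 in Day2_OHT. It made up 17.3% ± 0.0545 in Day4_EtOH and 5.82% ± 0.0811 in Day4_OHT.

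The ratio of *Eef1d* to *Eef1g* (mean ± SD of 3 libraries, here and in the ratios that follow) fell from 0.658 ± 0.0139 to 0.36 ± 0.00583 at Day 2 and from 0.6 ± 0.0064 to 0.189 ± 0.00393 at Day 4. That of *Eef1d* to *Eef1a1* was 0.0737 ± 0.00158 against 0.0395 ± 0.000933 at Day 2 and 0.0825 ± 0.000703 against 0.0217 ± 0.000555 at Day 4. In all 3 ratios with *Eef1d* the groups did not overlap on either day (exact permutation test, two-sided, p = 0.1, the smallest that 3 against 3 libraries allow, in each of 6 tests). Since this design cannot pass 0.05, the sizes are given as descriptions.

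The ratios without *Eef1d* moved little. *Eef1b2* to *Eef1g* was 2.06 ± 0.0377 in EtOH and 2.1 ± 0.0274 in OHT at Day 2, with overlapping groups (exact permutation p = 0.2). At Day 4 it was 1.87 ± 0.0407 and 2.05 ± 0.0283, with no overlap (exact permutation p = 0.1). *Eef1a1* to *Eef2*, the delivery factor to the translocase, was 6.68 ± 0.0707 and 6.79 ± 0.204 at Day 2 and 7.6 ± 0.165 and 7.47 ± 0.0803 at Day 4. Groups overlapped on both days (exact permutation p = 0.4 and 0.2), although both genes were called higher at Day 4.

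**Figure D3:**
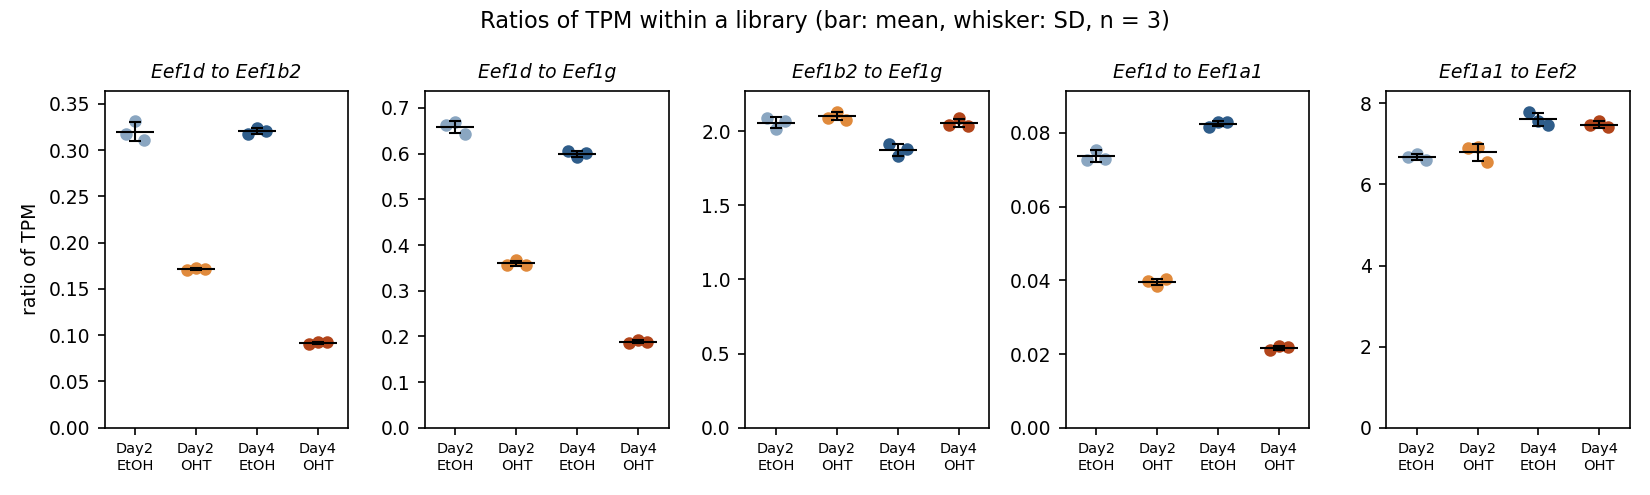
Ratio of TPM between 5 pairs of genes in each library (points), with the mean as a bar and the SD as a whisker, on axes that start at 0. The 3 ratios with *Eef1d* drop in OHT to between 53.6% and 54.7% of EtOH at Day 2 and between 26.3% and 31.4% at Day 4, and the other 2 stay between 98.3% and 110% of it.

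RSEM also gives each gene an effective length, the mean over its transcripts weighted by their estimated abundance, which moves when reads are assigned to other transcripts. For *Eef1d* it was 672, 668 and 679 bases in Day2_EtOH and 626, 628 and 631 in Day2_OHT. It was 677, 691 and 685 bases in Day4_EtOH and 623, 622 and 611 in Day4_OHT. In OHT the mean fell by 44.7 bases (-6.65%) at Day 2 and fell by 65.9 bases (-9.63%) at Day 4, with no overlap (exact permutation p = 0.1 on each day, the smallest possible). The mean effective lengths of the other 4 genes moved by at most 0.76%, and all 4 were lower in OHT at Day 2 and higher at Day 4. The groups did not overlap for *Eef1a1* on either day (-11.9 bases at Day 2 and 6.95 bases at Day 4). For *Eef2* they did not overlap at Day 4 (6.08 bases). The exact permutation p was 0.1 in each case. Whether these small shared shifts came from the transcripts assigned was not tested. The other 4 genes have 1 to 3 annotated coding transcripts, against 15 for *Eef1d*. The share of all genes whose effective lengths separate in this way was not computed, so how unusual the shift is was not tested. Values per transcript were not analysed here, so which *Eef1d* transcripts made up the shift is not shown. With effective lengths as offsets, the log2 fold change of *Eef1d* was -0.95 at Day 2 and -1.56 at Day 4, and it was called on both days.

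**Figure D4:**
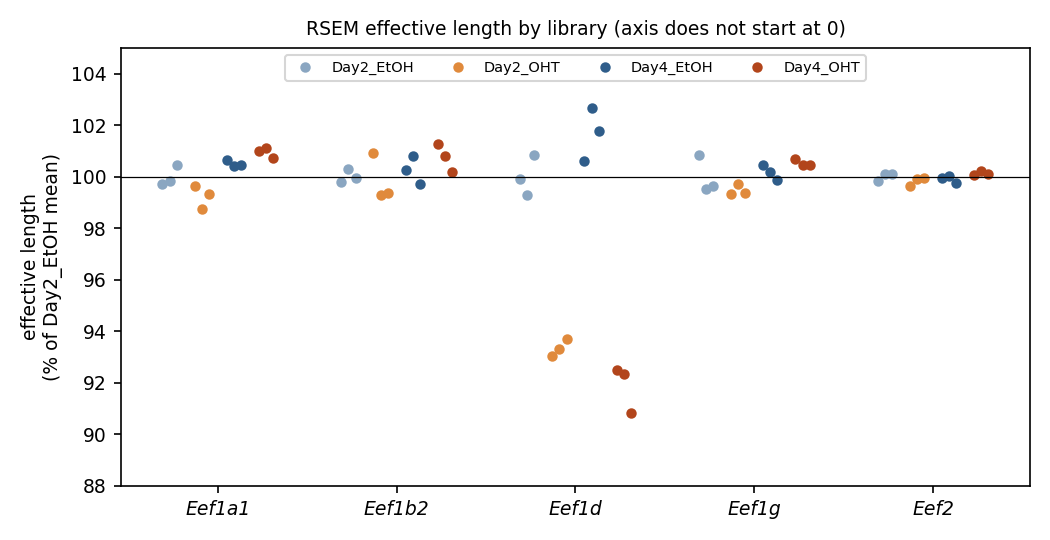
RSEM effective length of the 5 genes in each library (points, coloured by group) as a percentage of the mean of that gene in Day2_EtOH, on an axis that does not start at 0. The *Eef1d* points of Day2_OHT and Day4_OHT lie below 94% and all other points lie between 98.8% and 103%.

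Genes around *Eef1d* were compared with it. *Naprt*, which encodes an enzyme of NAD synthesis and follows *Eef1d* on the same strand (75890956 to 75894481), overlaps its end by 277 bases, within which reads could be shared. Its log2 fold changes were -0.08 (DESeq2, SE 0.14, adjusted p = 0.764) and 0.22 (DESeq2, SE 0.11, adjusted p = 0.133). *Tigd5* starts 178 bases from the most upstream end of *Eef1d*, on the opposite strand (75909735 to 75914535), a head-to-head arrangement. Of the 18 *Eef1d* transcripts, 3 start within 100 bases of that end, and the farthest starts 12816 bases from it. *Tigd5* had a mean normalised count of 59.1, below the minimum for a call, and log2 fold changes of -0.46 (DESeq2, SE 0.28, adjusted p = 0.298) and -0.49 (DESeq2, SE 0.26, adjusted p = 0.142).

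Within 25000 bases lie 3 further genes. *Pycrl*, which encodes an enzyme of proline synthesis, had -0.07 (DESeq2, SE 0.07, adjusted p = 0.583) at Day 2 and fell by 0.46 on the log2 scale at Day 4 (DESeq2, SE 0.06, adjusted p = 7.05e-12). *Tsta3* had -0.06 (DESeq2, SE 0.07, adjusted p = 0.675) and 0.14 (DESeq2, SE 0.06, adjusted p = 0.0706). *Mroh6*, at a mean normalised count of 23.7, was too low for a call. *Tigd5* and *Mroh6* could not be called by the rule used. Of the 3 that could, *Naprt*, *Pycrl* and *Tsta3*, none was called at Day 2, where 19.8% of all genes tested were. At Day 4 only *Pycrl* was called, where 45.1% of all genes tested were.

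The study linked 633 genes to PRDM10 binding by ChIP-seq in mESCs, a list that was not chosen on these libraries. It holds *Eef1d* and *Tigd5* but not *Eef1a1*, *Eef1b2*, *Eef1g* or *Eef2*. The study listed a gene when a peak lay in or near its body, so the same peak can list neighbours such as *Eef1d* and *Tigd5*. The genes most like *Eef1d* across the 12 libraries were sought by the root-mean-square difference of log2 normalised counts, each gene centred on its own Day2_EtOH mean, among 11611 genes. The closest was *Ptcd2* (0.143), a gene for a mitochondrial RNA-processing protein, with log2 fold changes of -1.21 at Day 2 and -1.42 at Day 4. It was followed by *Sept11* (0.177), a cytoskeletal septin, with -1.06 and -1.42, and *Tst* (0.196), the thiosulfate sulfurtransferase, with -0.73 and -1.53. *Oxr1* (0.204), an oxidation resistance gene, had -1.05 and -1.48, and *Lancl2* (0.219) had -1.46 and -1.59. All 5 are on the ChIP-seq list, as are 426 (3.67%) of the 11611 genes. The other eEF1 subunits and *Eef2* were 1.01 to 1.09 away and ranked 5733 to 8376, in the middle and far range of all genes.

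**Figure D5:**
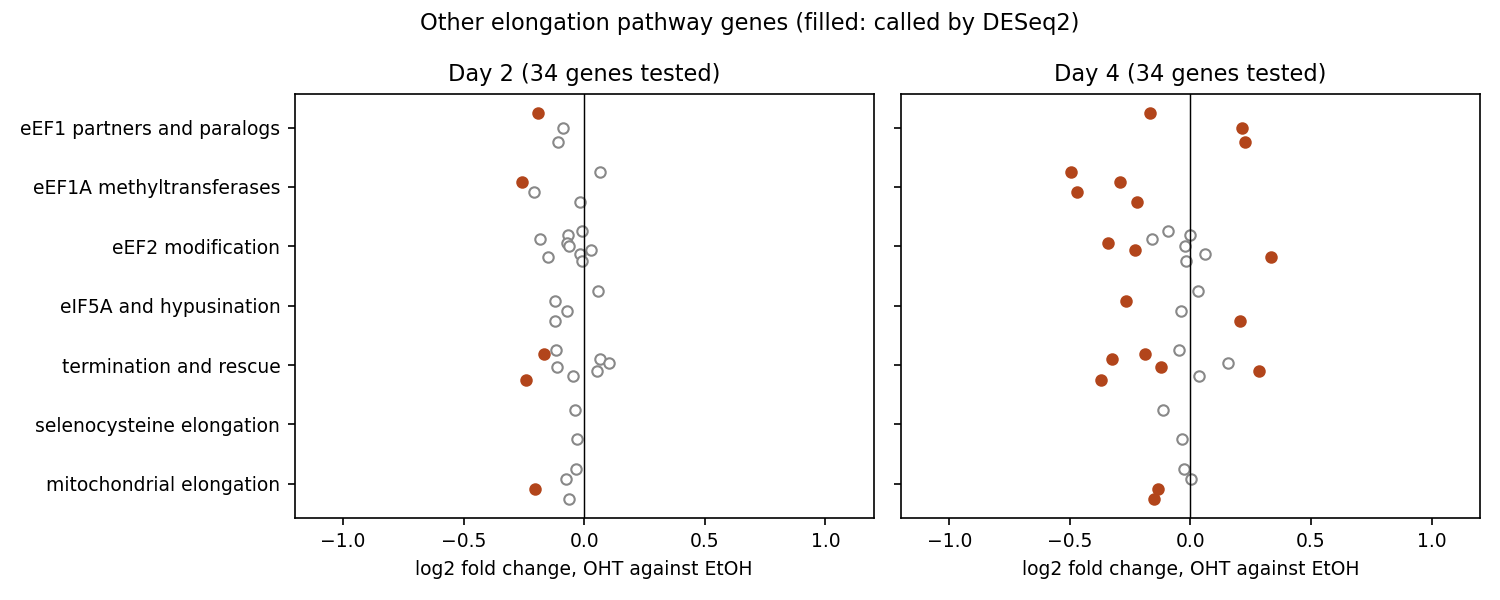
DESeq2 log2 fold changes of 34 other genes of elongation, termination and their modification, by group and day (filled points were called, open points were not). At Day 2 the 5 called genes are all lower, and at Day 4 there are 14 lower and 5 higher.

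To see whether other genes of the pathway moved with *Eef1d*, a list of 36 was examined, of which 34 were expressed enough to be tested. At Day 2, 5 were called lower and none higher, where 10.6% of all genes tested were called lower and 9.17% higher. Their median log2 fold change was -0.07, against -0.03 over all genes tested. At Day 4, 14 were called lower and 5 higher, where 21.7% and 23.5% of all genes were, and the median was -0.07 against 0.01. The tested genes ranged from -0.26 to 0.10 at Day 2 and from -0.49 to 0.33 at Day 4, so that none changed as much as *Eef1d*. The split over all genes depended on the scaling at Day 2, with 1068 called higher and 1238 lower here and 1389 higher and 638 lower of 11652 with total counts. The list's Day 2 count of 5 became 3 with total counts as scaling, 3 with a replicate block, 8 with all 12 libraries in 1 fit, 2 without Day2_EtOH replicate 1 and 3 without Day2_OHT replicate 2.

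The 5 genes called lower on both days come from 4 groups. The share of all genes called lower on both days was not computed, so whether 5 is unusual was not tested. *Eef1e1*, which encodes a scaffold protein of the aminoacyl-tRNA synthetase complex related to the eEF1 subunits, had log2 fold changes of -0.19 (SE 0.05) and -0.17 (SE 0.04). *Eef1akmt2*, a lysine methyltransferase of eEF1A, had -0.26 (SE 0.09) and -0.29 (SE 0.09). *Etf1*, the release factor that reads stop codons, had -0.17 (SE 0.04) and -0.19 (SE 0.04). *Pelo*, which rescues stalled ribosomes, had -0.24 (SE 0.08) and -0.37 (SE 0.07), and *Tsfm*, the exchange factor of mitochondrial elongation, had -0.21 (SE 0.05) and -0.13 (SE 0.05). The DESeq2 adjusted p-values of these genes ranged up to 0.0309 at Day 2 and 0.0238 at Day 4. No gene of the list was called higher on both days, since none was called higher at Day 2.

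By group, all 4 tested eEF1A methyltransferases were called lower at Day 4 and had a median of -0.38 on the log2 scale. The 3 beside *Eef1akmt2*, named after their values were seen, were *Eef1akmt1* (-0.49), *Eef1akmt4* (-0.47) and *Mettl13* (-0.22), and at Day 2 they had 0.07, -0.21 and -0.02, none of them called. Of the eEF1 partners and paralogs, 2 were called higher at Day 4 and 1 lower. *Vars*, the valyl-tRNA synthetase that binds eEF1, rose by 0.23 (SE 0.04) and *Tpt1*, which binds the exchange subunits, by 0.21 (SE 0.03), both also named after their values were seen. *Eef1a2*, the eEF1A paralog of muscle and neurons, was too low to be tested, at a mean normalised count of 33.3.

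Among 9 genes of eEF2 modification, 1 was called higher and 2 lower at Day 4. The one that rose, named after its values were seen, was *Eef2k*, the kinase that inhibits eEF2, with a log2 fold change of 0.33 (DESeq2, SE 0.09, adjusted p = 7.13e-04). The 4 genes of eIF5A and its hypusination had 1 called in each direction, and the 8 of termination and rescue had 4 lower and 1 higher. The 4 of mitochondrial elongation had 2 lower, and the 2 of selenocysteine elongation had none. Of the 36 list genes, 1 (2.78%) is on the study's ChIP-seq list. It is *Dohh*, of the eIF5A group, named after its values were seen, with log2 fold changes of -0.12 (not called) at Day 2 and -0.27 (called) at Day 4.

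The study's gel-shift probe for PRDM10 was used to look for the same letters near the start sites. It is a designed oligonucleotide and is shown because the capitals, the 8 bases changed in its mutated form, define the pattern TGGTNNNGCCC.
Wild-type probe: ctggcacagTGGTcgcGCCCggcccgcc
Promoter windows of 300 bases around RefSeq start sites (GRCm38) were at hand for *Eef1a1*, *Eef1b2* and *Eef2*. None held the pattern on either strand, which 476 (1.45%) of 32851 windows held. Of the 597 windows of genes on the ChIP-seq list, 61 (10.2%) held the pattern. With 1 mismatch allowed it was found for *Eef1a1* only, as in 24.6% of all windows, on the minus strand of chromosome 9 at 78481727 to 78481737, and the capitals mark letters in accord with the pattern.
Eef1a1: TGGctccGCCC
Windows of *Eef1d* and *Eef1g* were not analysed here. A match of letters is a description and shows no binding, and the lack of a match does not show that binding is absent.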

How the data were processed

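RNA-seq was analysed in 12 libraries grouped by their titles into 4 groups of 3. According to the labels and the study's methods, stranded libraries were made from total RNA. To obtain the deposited expected counts and TPM, the authors mapped paired reads to GRCm38.p6 with STAR (2.6.0c) and ran RSEM on each library by itself against the gene models of GENCODE vM18. Such a count is an estimated number of read pairs, shared among genes where a pair maps to several, and TPM is scaled to transcript length and library. RSEM also gave the deposited effective lengths and posterior SDs, whose unit is bases and read pairs. The authors' tables of DESeq2 results (1.22.2) hold, in 12 columns, mean signal (counts divided by size factors), log2 fold changes with SE, Wald scores and p-values per day. None of these was used, only their gene identifiers and symbols.

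Expected counts were rounded and fitted over all genes with DESeq2 (1.42.0, R 4.3.3, Wald test, median-of-ratios size factors, independent filtering, no shrinkage). The tool and both thresholds are those of the study's methods, and the other settings were chosen here. A gene was called when its p, adjusted by Benjamini-Hochberg, was below 0.05 and its mean normalised count exceeded 100. Printed normalised counts use size factors of all 12 libraries, whereas fold changes of a day come from its 6 libraries, and 95% intervals are normal ones from the SE. TPM ratios (5 on 2 days, 10 tests) and effective lengths (10 tests) were compared by exact permutation tests over libraries. Positions, transcripts and shared windows are from GENCODE vM21, and promoter windows from RefSeq on GRCm38. Read pairs carry no molecular identifiers. Posterior SDs cover only the assignment of read pairs to genes and leave out counting error and the spread between libraries. No pair of libraries of a group was a duplicate (chi-square per gene 3.41 to 11.2).

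Named were the 5 genes, *Prdm10*, list genes with the same called direction at Day 2 and Day 4, the 5 genes most like *Eef1d* (log2 of normalised count plus 1), and genes that overlap it or lie within 25000 bases. The 5 genes and the lists were chosen with earlier results of these data known. Alternatives were edgeR (4.0.16), TMM or total-count scaling, effective-length offsets, posterior mean counts or TPM, expected counts for ratios, no low-count filter, a replicate block, 1 fit of all libraries, and each library left out. The OHT against EtOH fits of each day with DESeq2 and edgeR were tested on simulated counts, with fewer changed genes than were called here. The interaction fit and the permutation tests were not simulated.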

Additional observations from a re-analysis of the deposited data

Results flagged for a closer look

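The OHT effect differed between the days for all 5 genes (DESeq2 interaction of treatment and day over 12 libraries). The log2 effect at Day 4 minus that at Day 2 was -0.66 for *Eef1d*, 0.43 for *Eef1a1*, 0.30 for *Eef1b2*, 0.20 for *Eef1g* and 0.47 for *Eef2*. *Eef1d* moved in the same direction on both days and further at Day 4. The others had values slightly below 0 at Day 2 and called values above 0 at Day 4. Their Day 2 sign depended on the scale, since as TPM they stood at 100% to 102% of EtOH. In the fit of 12 libraries the Day 2 value was called for *Eef1g* (-0.087, DESeq2 adjusted p = 0.0161) and not for *Eef1a1*, *Eef1b2* or *Eef2*. Over all 11612 genes tested, that Day 2 comparison with 12 libraries called 1319 higher and 1825 lower. The interaction was called for 32.3% of all genes tested.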

How the results depend on the processing

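Of 243 values under alternatives that keep every library, 230 were taken as kept, as were 313 of 324 with 1 library left out. A fold change was kept if its direction and side of the threshold stayed the same. Ratios and lengths were kept if they stayed within the spread of the libraries. Counts of list genes were kept if their ratio to the main count stayed within a set limit. Thus 7 called lower at Day 2 with effective-length offsets, and 4 with no low-count filter, were taken as kept against 5. The fall of *Eef1d* in OHT was called in each alternative run on both days, and so were the Day 4 rises of the other 4 genes. Without a library, the Day 2 fold change of *Eef1g* ranged from -0.11 to -0.069 and that of *Eef2* from -0.11 to -0.045, called only without Day2_OHT replicate 3, and *Eef1g* (-0.087) was also called with all 12 libraries in 1 fit. Between the days in OHT, *Eef2* ranged from 0.070 to 0.13 and lost its call with total counts (0.074). Between the days in EtOH, values near 0 changed sign without being called. *Eef1d* had -0.017 with effective lengths as offsets and -0.020 to 0.021 without a library, and *Eef1b2* had 0.0031 with total counts. List genes called lower at Day 2 numbered 3 with total counts, 3 with a replicate block, 8 with 1 fit of all libraries and 2 to 5 without a library, and 0 to 1 were called higher. With expected counts in place of TPM, which takes no account of effective length, the log2 change at Days 2 and 4 of its ratio to *Eef1b2* was -0.995 and -1.96, to *Eef1g* -0.96 and -1.82, and to *Eef1a1* -0.99 and -2.08. Samples share only a replicate number. Deviations of same-numbered libraries correlated at -0.385 to 0.285 and 2 of 12 libraries matched best with their own number, and the replicate block lowered the calls over all genes from 1068 higher and 1238 lower to 658 and 659 at Day 2. It changed no call of the 5 genes. The smallest p of 3 against 3 libraries, 0.1, says nothing on the stability of ratios or lengths. The cause of these changes was not tested.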
